A study of Mus musculus with 3 samples.

Results

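The genes described here take up, store and release cellular iron in NIH3T3 cells, an immortalised line of mouse embryonic fibroblasts. The list names 10 genes, which are Tfrc, Slc11a2, Steap3, Slc39a14, Fth1, Ftl1, Ncoa4, Slc40a1, Ireb2 and Aco1. A probe set, the group of oligonucleotides that reads a transcript on these arrays, was taken as a member when the platform annotation gave it exactly 1 gene symbol and that symbol was on the list. This gave 27 of the 45101 probe sets, for 9 of the 10 genes. Ftl1, the ferritin light chain, has 3 probe sets that the annotation shares with other symbols, so no value is given for it.

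RNA was compared between 2 groups on 3 single-colour arrays. RetSat shRNA, 1 array (numbered 2 in its title), holds NIH3T3 cells with a short hairpin RNA against retinol saturase (Retsat), the enzyme that converts retinol to dihydroretinol. These cells are labelled as highly resistant to t-BHP, tert-butyl hydroperoxide, an organic peroxide, and no treatment is stated for them. Empty vector, 2 arrays (empty vector 1 and empty vector 2), holds NIH3T3 cells with the vector alone, untreated and labelled as showing basal expression. Whether the lines are clones, and whether the empty-vector RNAs are from different cultures, is not stated. The p-values set each difference against the spread between the empty-vector arrays, drawn toward a value pooled over genes. The single RetSat shRNA array adds nothing to that spread, which may be technical variation only.

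Iron enters most cells bound to transferrin, is reduced and passed out of the endosome, and is then used, stored in ferritin or exported. Ferrous iron reacts with peroxides to give radicals, which is why iron handling bears on peroxide toxicity. In vertebrates the iron regulatory proteins bind stem-loops in the messenger RNAs of ferritin, ferroportin and the transferrin receptor, so much of the control acts on translation and on mRNA stability, and an mRNA signal need not follow the protein.

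No member passed the test between RetSat shRNA and empty vector, and the largest differences among them involved empty vector 1. Tfrc, Ncoa4 and Ireb2 read 2.26 to 3.06 times as much on empty vector 1 as on empty vector 2, and their signals on RetSat shRNA were 0.924 to 1.15 times those on empty vector 2. Slc39a14 and Slc40a1 had the largest differences from empty vector 2 among the 9 genes, at 0.40 and 0.31 on the log2 scale. These values are from the brightest probe set of each gene. A dimmer probe set of Slc39a14 went the other way, at -0.74 from empty vector 2. Fth1 read within 1.12-fold of each empty-vector array.

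Differences between arrays are given as differences of log2(signal + 10.2), where 10.2 is the 25th percentile of all deposited signals. They understate the change of dim probe sets. For each gene the probe set of highest mean log2 signal was used, and the gene was tested when that mean reached the median of all probe sets. All 9 genes passed this filter through the probe set used, as did 22 of the 27 probe sets. The test was limma's moderated test over all 10843 genes with Benjamini-Hochberg adjustment. It starts from the spread of a gene between the empty-vector arrays (1 residual degree of freedom) and draws it toward a value pooled over all genes. The same spread is assumed for the single RetSat shRNA array. The standard errors thus rest largely on the pooled value. For Fth1, for example, the SE was 0.500 although the empty-vector arrays differed by 0.05 on the log2 scale. In the fit 0 genes of 10843 (0%) had an adjusted p under 0.05, and 108 (0.996%) had an unadjusted p under 0.05. For the 9 members every adjusted p was 1, and the lowest unadjusted p was 0.211, for Ncoa4. With standard errors of 0.50 to 0.66 on the log2 scale, a 2-fold difference in any of them would not have passed.

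The target of the shRNA went with the label. Retsat read 69.5 on RetSat shRNA, against 416 and 496 on empty vector 1 and 2 (limma log2 difference -2.54, SE 0.504, adjusted p = 1, unadjusted p = 0.000432). Over the alternative settings its adjusted p in limma ran from 0.00717, with a robust variance prior, to 1. Across tested genes, which are not independent replicates, the SD of the log2 difference was 0.754 between RetSat shRNA and empty vector 1, 0.336 between RetSat shRNA and empty vector 2, and 0.739 between empty vector 1 and empty vector 2. For the median tested gene RetSat shRNA was 0.14 above empty vector 1 and at 0.00 from empty vector 2. The 8 fibroblast markers were all tested and summed to 70458 on RetSat shRNA, 68247 on empty vector 1 and 69452 on empty vector 2, although Pdgfrb (2455, 1287 and 2548) and Col3a1 (1094, 811 and 1358) were lower on empty vector 1 than on the other arrays. Among markers of other cells 2 of 5 macrophage, 2 of 4 epithelial and 1 of 3 hepatocyte genes reached the filter, and so did 0 of the 2 erythroid genes, of 4 listed, that have a probe set of their own. Among all genes, 10843 of the 18193 with a probe set reached it. Of the epithelial markers that did, Krt8 read 78.1 on RetSat shRNA, 102.1 on empty vector 1 and 16.2 on empty vector 2. Epcam read 106.6, 53.8 and 121.8 in the same order of arrays. The macrophage markers summed to 743 on RetSat shRNA, 688 on empty vector 1 and 628 on empty vector 2. Most of this was Cd14, at 615, 569 and 480, while Csf1r read 86.6, 83.3 and 105.9, Adgre1 read 21.4, 29.0 and 36.7, and Ptprc, which marks blood cells, read at most 15.2. In cultures measured in bulk, fewer cells of a kind and less RNA per cell cannot be told apart.

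Empty vector 1 also stood apart in part of the proliferation genes. Mki67 read 122 on RetSat shRNA, 3234 on empty vector 1 and 125 on empty vector 2, and Top2a read 624, 5904 and 655 in the same order of arrays. Pcna (10310.2, 10420.2 and 10141), Cdk1 (4210.1, 3585 and 4165) and Mcm2 (1594, 1428 and 1906) did not share this pattern, and the 5 genes summed to 16861 on RetSat shRNA, 24572 on empty vector 1 and 16991 on empty vector 2. The ratio of 3' to 5' signal, which rises as RNA degrades, was 1.65, 1.53 and 1.53 for Actb and 0.931, 0.841 and 0.931 for Gapdh. The part of these differences in the values below was not tested, so each member is given against each empty-vector array.

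**Figure D1:**
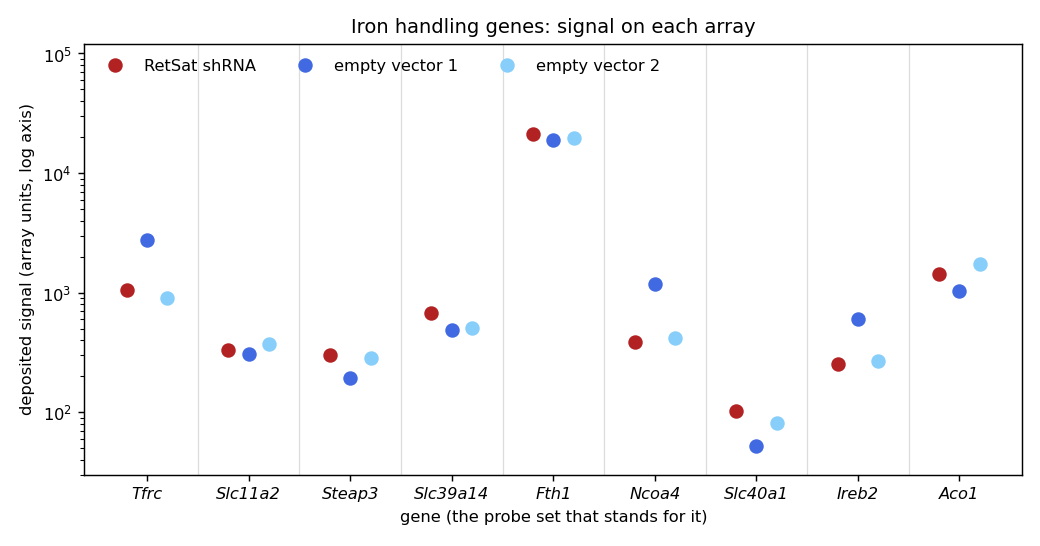
Deposited signal (array units, log axis) of the probe set that stands for each of the 9 genes, with 1 point an array. Tfrc, Ncoa4 and Ireb2 have 1 high point each, on empty vector 1, while the Fth1 points lie between 18915 and 21137.

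Among the genes of the transferrin route, Tfrc encodes the transferrin receptor, which carries iron-loaded transferrin into the endosome. Its brightest probe set, 1452661_at, read 1045 on RetSat shRNA, 2778 on empty vector 1 and 908 on empty vector 2. RetSat shRNA thus lay between the empty-vector arrays, near empty vector 2. RetSat shRNA differed by -1.40 from empty vector 1 and by 0.20 from empty vector 2 on the log2 scale, beside 1.60 between the controls. Against their mean it was -0.60 (SE 0.658, limma adjusted p = 1), a sign that comes from empty vector 1.

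The other probe sets of Tfrc gave the same order for empty vector 1. Probe set 1422966_a_at read 38.0 on RetSat shRNA, 407 on empty vector 1 and 49.4 on empty vector 2. The array also carries 3 control probe sets along the Tfrc transcript. The one at its 3' part read 42.7, 232 and 37.3 on RetSat shRNA, empty vector 1 and empty vector 2, the middle one 4.1, 37.9 and 4.7, and the one at its 5' part 11.3, 29.6 and 13.2. All 6 probe sets of Tfrc were highest on empty vector 1, at 2.24 to 25.1 times the signal of empty vector 2. The largest ratio belongs to 1422967_a_at, which read 24.2, 57.8 and 2.3 and was below the filter, as were the middle and 5' control probe sets.

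Steap3 encodes the endosomal ferrireductase that turns ferric into ferrous iron. Its brightest probe set, 1423468_at, read 304 on RetSat shRNA, 193 on empty vector 1 and 286 on empty vector 2, and 1430355_a_at read 161, 149.7 and 169. A dimmer probe set, 1453498_x_at, went the other way, at 55.0 on RetSat shRNA, against 102 and 93.3 on empty vector 1 and 2. Its log2 differences of -0.79 and -0.67 exceeded the 0.12 between the empty-vector arrays, but its adjusted p was 1 in limma fitted to each probe set on its own (unadjusted p = 0.183). The gene's direction therefore depends on the probe set.

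Slc11a2, also known as DMT1, moves ferrous iron from the endosome into the cytosol. The brightest of its 4 probe sets, 1452078_a_at, read 334 on RetSat shRNA, 307 on empty vector 1 and 371 on empty vector 2, which puts RetSat shRNA between the controls (limma log2 difference -0.02, SE 0.505, adjusted p = 1). Probe set 1426441_at read 333, 235 and 346, and 1441709_at read 133, 62.5 and 126. On 1417584_at the order of the controls was turned, with 205 on RetSat shRNA, 252 on empty vector 1 and 146 on empty vector 2. The sign of the gene's difference turned when arrays were centred on their medians (0.07), after quantile normalization (0.07) and in the mean over its probe sets (0.20).

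Slc39a14, also known as ZIP14, takes up zinc, manganese and iron that is not bound to transferrin. Its brightest probe set, 1427035_at, read 677 on RetSat shRNA, 487 on empty vector 1 and 509.9 on empty vector 2. RetSat shRNA was above both controls, which lay close together. The log2 differences of 0.47 and 0.40 compare with 0.07 between the empty-vector arrays, and limma gave 0.43 (SE 0.500, adjusted p = 1). The next probe set, 1425649_at, read 135 on RetSat shRNA, against 133 and 124. Probe set 1438490_at read 18.3 on RetSat shRNA, against 56.8 and 37.4 on empty vector 1 and 2, a log2 difference of -1.23 and -0.74. It had the lowest unadjusted p of all member probe sets (0.099, adjusted p = 1 in limma over 19529 probe sets). The fourth, 1457770_at, read 7.2, 4.9 and 9.0 and was below the filter. In the mean over its probe sets the difference of Slc39a14 from empty vector was -0.11, the opposite sign.

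**Figure D2:**
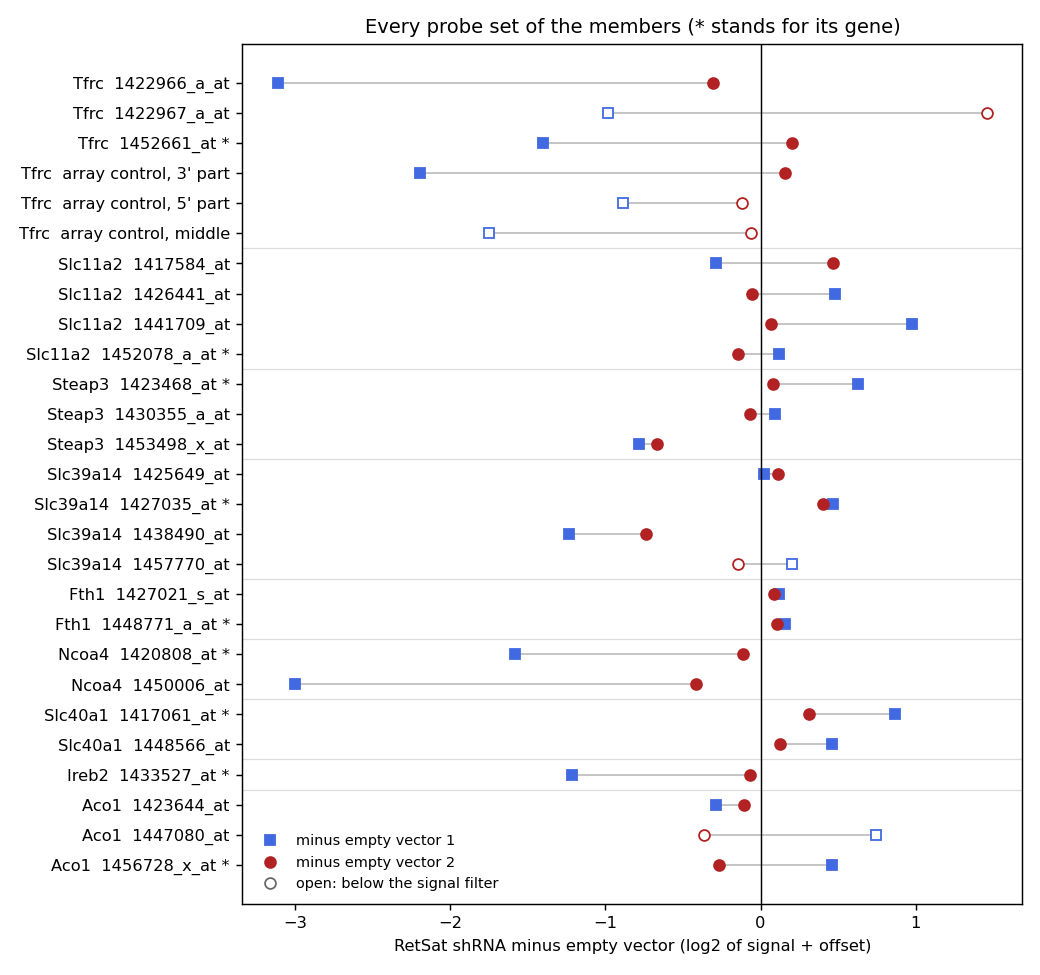
Difference of RetSat shRNA from empty vector 1 (squares) and from empty vector 2 (circles) for all 27 member probe sets, in log2 of signal + offset, with open symbols for the 5 below the signal filter. Squares of Tfrc, Ncoa4 and Ireb2 lie between -3.11 and -0.89 while their circles, apart from the dim 1422967_a_at, stay within 0.42 of 0.

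Iron that is not used is stored in ferritin, a shell of heavy and light subunits. Fth1 encodes the heavy subunit, a ferroxidase that oxidises ferrous iron for storage. Probe set 1448771_a_at read 21137 on RetSat shRNA, 18915 on empty vector 1 and 19613 on empty vector 2, and 1427021_s_at read 17498, 16111 and 16466. RetSat shRNA was the highest array on both probe sets by a small margin. The log2 differences were 0.16 and 0.11 for the brighter one, where the empty-vector arrays differed by 0.05, and limma gave 0.13 (SE 0.500, adjusted p = 1). The value was 0.22 with arrays centred on their medians, and its sign turned after quantile normalization, to -0.04. These signals lie in the upper part of the array ranges, which end at 30189.8 on RetSat shRNA, 23866.9 on empty vector 1 and 27558.8 on empty vector 2. Whether such spots were saturated is not known from the deposited values.

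Ncoa4 encodes the receptor that brings ferritin to the lysosome, where its iron is released. Probe set 1420808_at read 387 on RetSat shRNA, 1180.3 on empty vector 1 and 419 on empty vector 2, and 1450006_at read 80.7, 717 and 111. RetSat shRNA was the lowest array on both probe sets, and empty vector 1 was far above the other control. The brighter probe set differed by -1.58 from empty vector 1 and by -0.11 from empty vector 2 on the log2 scale, and the dimmer one by -3.00 and -0.42. Against the mean of the controls limma gave -0.85 (SE 0.636, adjusted p = 1), a size that rests on empty vector 1, since it was -0.11 without that array. In the mean over both probe sets it was -1.28.

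Slc40a1 encodes ferroportin, the exporter of iron from cells. Probe set 1417061_at read 103 on RetSat shRNA, 51.8 on empty vector 1 and 80.9 on empty vector 2, and 1448566_at read 49.4, 33.1 and 44.5. RetSat shRNA was the highest array on both probe sets. The log2 differences of 0.87 and 0.31 for the brighter probe set compare with 0.56 between the empty-vector arrays, and limma gave 0.59 (SE 0.521, adjusted p = 1). The difference from empty vector 2 was thus smaller than that between the controls. The gene is dim, and it was the 1 member of 9 that did not reach the filter when this was raised to the 75th percentile.

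The iron regulatory proteins bind iron-responsive elements when iron is scarce, which blocks translation of ferritin and stabilises Tfrc mRNA. Ireb2 encodes IRP2 and has 1 probe set, 1433527_at, which read 256 on RetSat shRNA, 608 on empty vector 1 and 269 on empty vector 2. RetSat shRNA lay just below empty vector 2, at a log2 difference of -0.07, and far below empty vector 1, at -1.22. Limma gave -0.64 against the mean (SE 0.586, adjusted p = 1).

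Aco1 encodes IRP1, which serves as cytosolic aconitase when it carries an iron-sulfur cluster. Its brightest probe set, 1456728_x_at, read 1429 on RetSat shRNA, 1034 on empty vector 1 and 1721 on empty vector 2, so RetSat shRNA lay between controls that differed by 0.73 on the log2 scale. Probe set 1423644_at read 362 on RetSat shRNA, against 444 and 391 on empty vector 1 and 2, below both. The third, 1447080_at, read 37.1, 18.0 and 50.7 and was below the filter. The probe sets thus placed empty vector 1 on opposite sides of empty vector 2.

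Counted together, RetSat shRNA was above both empty-vector arrays for 4 of the 9 genes (Steap3, Slc39a14, Fth1 and Slc40a1), and 34.4% of all tested genes were. It was below both for 2 of 9 (Ncoa4 and Ireb2), and 25.4% of all tested genes were. For Tfrc, Slc11a2 and Aco1 it lay between the controls. These shares are near the background. Over the probe sets that reached the filter, RetSat shRNA was above both controls for 8 of 22 (30.8% of 19529 probe sets tested were), below both for 7 (29.2%) and between them for 7. Of these 22, 0 passed limma fitted to single probe sets (0% of 19529), and 0 were at least 2-fold from empty vector 2 on RetSat shRNA (2.68%). At least 2-fold higher on empty vector 1 than on empty vector 2 were 6 (11.6%). These 6 are the tested probe sets of Tfrc (3, an array control among them), Ncoa4 (2) and Ireb2 (1), so they are not separate genes. No member was at least 2-fold higher or lower than both controls, beside 0.0922% higher and 0.498% lower among all tested genes. The 9 members had a median difference of 0.16 against empty vector 1 and of 0.08 against empty vector 2, beside 0.14 and 0.00 over all tested genes.

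Set against empty vector 1 alone, 3 of the 9 genes (Tfrc, Ncoa4 and Ireb2) were at least 2-fold lower on RetSat shRNA and 0 at least 2-fold higher, beside 10.2% lower and 3.45% higher among all tested genes. Set against empty vector 2 alone, 0 of 9 were 2-fold away in either direction, and 1.73% of all tested genes were. The 3 genes were also at least 2-fold higher on empty vector 1 than on empty vector 2, where 9.32% of all tested genes were, and 0 members were 2-fold lower there (3.41%). These comparisons share arrays, so they are not independent of one another. Relative to the median tested gene, the difference of RetSat shRNA from empty vector 1 was -1.54 for Tfrc, -1.73 for Ncoa4 and -1.36 for Ireb2, and 0.73 for Slc40a1, 0.49 for Steap3, 0.33 for Slc39a14, 0.32 for Aco1, 0.02 for Fth1 and -0.02 for Slc11a2.

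**Figure D3:**
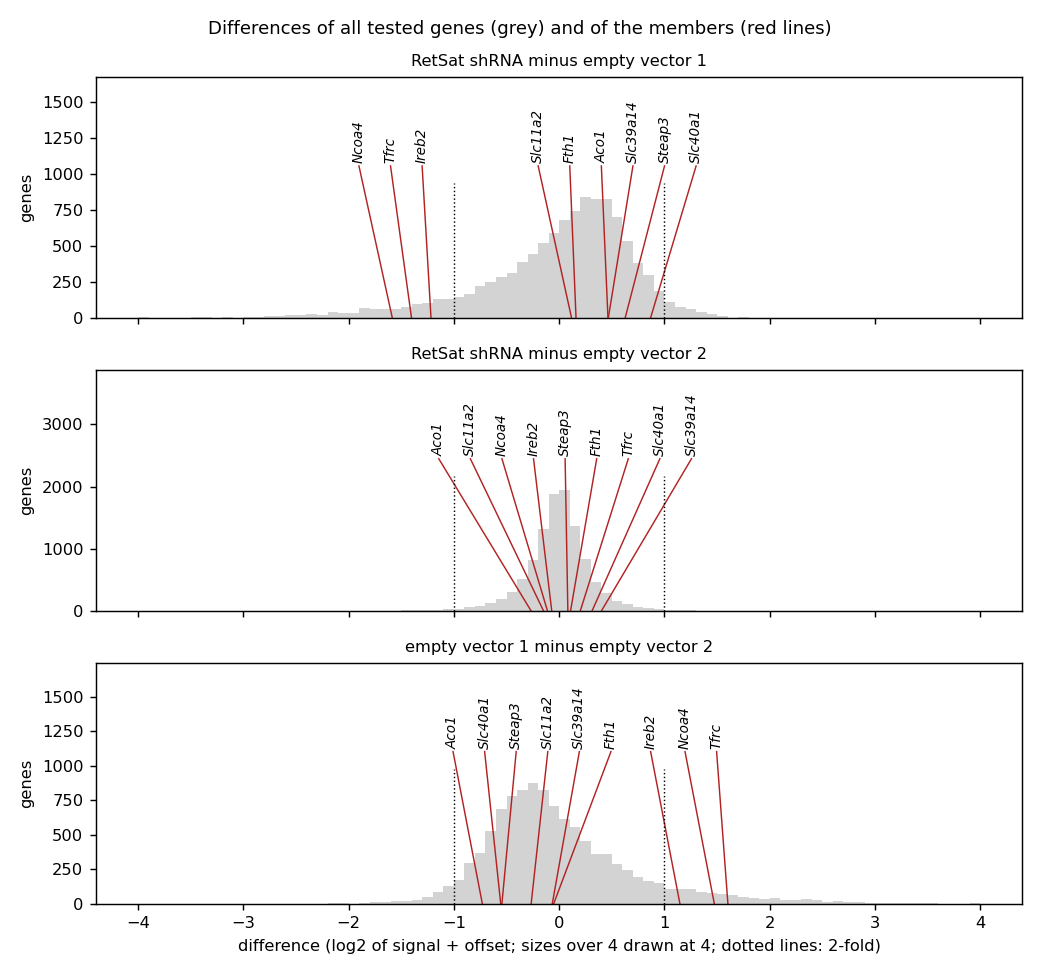
Distribution of the log2 difference over the 10843 tested genes (grey) for each pair of arrays, with red lines from each member's difference on the axis to its name. All 9 members lie within 0.40 of 0 between RetSat shRNA and empty vector 2, and Tfrc, Ncoa4 and Ireb2 lie beyond 2-fold in both panels that hold empty vector 1.

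Promoter sequence is shown for Tfrc, Ncoa4 and Ireb2, whose signals were high on empty vector 1, and for Fth1, whose signals stayed close on the 3 arrays. Each line gives the 250 bases before an annotated start (RefSeq, GRCm38.p6), 5′ to 3′, from the last of the gene's windows in the direction of transcription. Capitals mark matches on either strand to 4 motifs. They are the core of the TATA promoter element (TATAA), the box bound by nuclear factor Y (CCAAT), the core of the antioxidant response element (TGACNNNGC) and the E-box of MYC and its relatives (CACGTG).
Tfrc promoter, chr16:32608872-32609121, plus strand: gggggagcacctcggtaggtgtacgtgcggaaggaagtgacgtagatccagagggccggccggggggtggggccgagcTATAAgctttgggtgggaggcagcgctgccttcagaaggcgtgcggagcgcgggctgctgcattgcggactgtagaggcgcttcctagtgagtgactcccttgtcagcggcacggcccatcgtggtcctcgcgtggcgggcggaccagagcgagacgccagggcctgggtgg
Ncoa4 promoter, chr14:32165539-32165788, plus strand: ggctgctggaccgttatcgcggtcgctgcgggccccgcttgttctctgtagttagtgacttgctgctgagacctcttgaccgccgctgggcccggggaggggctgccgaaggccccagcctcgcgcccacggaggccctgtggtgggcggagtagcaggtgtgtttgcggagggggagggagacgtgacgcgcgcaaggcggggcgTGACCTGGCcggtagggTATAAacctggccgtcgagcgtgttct
Ireb2 promoter, chr9:54863505-54863754, plus strand: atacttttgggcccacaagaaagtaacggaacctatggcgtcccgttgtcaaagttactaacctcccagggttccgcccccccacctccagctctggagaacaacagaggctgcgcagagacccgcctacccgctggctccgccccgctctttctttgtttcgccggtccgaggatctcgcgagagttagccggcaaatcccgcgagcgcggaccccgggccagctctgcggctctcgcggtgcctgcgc
Fth1 promoter, chr19:9982396-9982645, plus strand: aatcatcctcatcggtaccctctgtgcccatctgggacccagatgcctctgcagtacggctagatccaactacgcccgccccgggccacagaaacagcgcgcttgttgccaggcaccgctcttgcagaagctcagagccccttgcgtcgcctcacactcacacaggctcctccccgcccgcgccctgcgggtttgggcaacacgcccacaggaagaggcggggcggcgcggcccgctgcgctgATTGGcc
The Tfrc window holds the TATA motif, the Ncoa4 window holds it together with the antioxidant response core, and the Fth1 window holds the nuclear factor Y box on the opposite strand. In the Ireb2 window these letters were not found. Windows not shown differ from these. The other Fth1 window holds the TATA motif, the other Tfrc window the nuclear factor Y box, and the other Ncoa4 windows none of the 4 motifs. The table of promoter windows had entries for 7 of the 10 genes, in 14 windows. Of the 14 windows, 0 held the E-box, 1 the antioxidant response core, 3 the TATA motif and 4 the nuclear factor Y box. Of all 32851 promoter windows of the same length, 6.02% held the E-box, 10.2% the antioxidant response core, 22.8% the TATA motif and 33.8% the nuclear factor Y box. A match is a description of the letters only.

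Beyond the members, 95 further genes of iron, heme and iron-sulfur metabolism were listed by role. Of these 87 had a probe set of their own and 73 were tested, and 0 passed limma (1 at an unadjusted p under 0.05). RetSat shRNA was above both controls for 35 of the 73 (47.9%, beside 34.4% of all tested genes) and below both for 16 (21.9%, beside 25.4%). Their median difference on the log2 scale was 0.28 with empty vector 1 as the control and 0.03 with empty vector 2. Between the controls, 8 were at least 2-fold higher on empty vector 1 than on empty vector 2 and 3 at least 2-fold lower, beside 9.32% and 3.41% of all tested genes. From each role up to 4 genes are named for lying farthest on one side of both controls, so their distance from the controls follows from that choice.

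The one gene of the 73 at least 2-fold from both controls was Slc22a17, a receptor for the iron-carrying protein lipocalin 2. It read 3.4 on RetSat shRNA, against 87.4 and 62.0 on empty vector 1 and 2, on its 1 probe set. RetSat shRNA was thus under the 25th percentile of all signals, so the fold rests on signal near the floor. Limma gave a log2 difference of -2.63 (SE 0.513, adjusted p = 1, unadjusted p = 0.000386), and over the alternative settings that gave it a value its adjusted p ran from 0.00717, with a robust variance prior, to 1. With an offset of 50 the difference was -1.22 (limma adjusted p = 1, unadjusted p = 0.0175), and with an offset of 1 or the 75th percentile filter the gene was not tested. Lipocalin 2 itself (Lcn2), chosen after its values were seen, read 196 on RetSat shRNA, 388 on empty vector 1 and 166 on empty vector 2.

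Over the uptake and trafficking genes, Slc22a17 included, RetSat shRNA was above both controls for 5 of 13 tested and below both for 7 (for this and the other roles, 34.4% and 25.4% of all tested genes were). Snx3, a sorting nexin that recycles the transferrin receptor, read 5739 on RetSat shRNA, against 3682 and 4689 on empty vector 1 and 2. Hfe, a partner of the transferrin receptor, read 68.2, against 53.3 and 59.9. Exoc6, an exocyst subunit known from mice for its part in transferrin traffic, read 65.7, against 190.4 and 71.0, with empty vector 1 the high array. In this role 2 of 13 genes were at least 2-fold higher on empty vector 1 than on empty vector 2, beside 9.32% of all tested genes.

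Among the cytosolic iron chaperones and ferritin-related genes RetSat shRNA was above both controls for 4 of 6 and below both for 1. The poly(C)-binding proteins, which deliver iron to ferritin, read 10951 on RetSat shRNA, against 8131 and 10473 for Pcbp1, and 10814, against 8671 and 10209 for Pcbp2. Bola2, which works with a glutaredoxin in iron-sulfur transfer, read 2726, against 1925 and 2385. Herc2, a ubiquitin ligase that acts on NCOA4, read 97.5 on RetSat shRNA, against 449.6 and 116 on empty vector 1 and 2. It was the 1 of these 6 genes at least 2-fold higher on empty vector 1 than on empty vector 2, beside 9.32% of all tested genes.

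For export, ferroxidases and hepcidin control RetSat shRNA was above both controls for 2 of 7 and below both for 2. Ceruloplasmin (Cp), the ferroxidase that works with ferroportin, read 2425 on RetSat shRNA, 5017 on empty vector 1 and 2473 on empty vector 2. The BMP receptor Bmpr2 read 615, against 1057 and 715, and the signal transducer Smad4 read 2355, against 1569.9 and 2041. Hepcidin (Hamp), a liver hormone, read 40.9, against 27.5 and 38.4, near the median signal of all probe sets, which was 35.7 to 39.4.

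Among iron sensing genes other than the regulatory proteins, RetSat shRNA was above both controls for 3 of 7 and below both for 0. The prolyl hydroxylase Egln1 read 711 on RetSat shRNA, against 511 and 643 on empty vector 1 and 2. The hypoxia factor Hif1a read 3963, against 3624 and 3444, and Ciao3, of the cytosolic iron-sulfur assembly, read 307, against 259.5 and 298. Fbxl5, the iron-sensing subunit of the ligase that removes IRP2, and its scaffold Cul1 were chosen after their values were seen. Fbxl5 read 495 on RetSat shRNA, against 537 and 385, and Cul1 read 368, against 1109 and 366. Cul1 was the 1 of these 7 genes at least 2-fold higher on empty vector 1 than on empty vector 2, beside 9.32% of all tested genes.

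In heme breakdown and transport, RetSat shRNA was above both controls for 7 of 9 and below both for 1, beside 34.4% and 25.4% of all tested genes. These counts take differences of any size, and empty vector 1 was the lowest array for 7 of the 9. The median size of the difference from empty vector 2 was 0.08 on the log2 scale, beside 0.15 over all tested genes. Heme oxygenase Hmox1, which frees iron from heme, read 1203 on RetSat shRNA, against 811 and 1110.4 on empty vector 1 and 2. The heme and folate carrier Slc46a1 read 103, against 54.8 and 84.3, and Pgrmc1, a heme-binding membrane protein, read 7239, against 5816 and 6783. The efflux pump Abcg2 was the one below both, at 108, against 392 and 152.

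In heme synthesis, RetSat shRNA was above both controls for 3 of 12, below both for 3 and between them for 6. Alas1, the first enzyme of the route outside red cells, read 273 on RetSat shRNA, against 279.9 and 394 on empty vector 1 and 2. Uros, the uroporphyrinogen synthase, read 166, against 218 and 216, a log2 difference of -0.37 and -0.36. Ppox, the protoporphyrinogen oxidase, read 181, against 105 and 174, and Tmem14c, a mitochondrial porphyrin carrier, read 1979, against 1481 and 1909. Cpox, the coproporphyrinogen oxidase, chosen after its values were seen, read 474 on RetSat shRNA, against 139 and 475, so here empty vector 1 was the low array.

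For mitochondrial iron and iron-sulfur assembly, RetSat shRNA was above both controls for 11 of 19 and below both for 2, beside 34.4% and 25.4% of all tested genes. Empty vector 1 was the lowest array for 13 of the 19. The median size of the difference from empty vector 2 was 0.16 on the log2 scale, beside 0.15 over all tested genes. Among the late-acting assembly factors, Iba57 read 107 on RetSat shRNA, against 76.1 and 76.2 on empty vector 1 and 2, Isca2 read 511, against 424 and 422, and Nfu1 read 1609.9, against 1121 and 1237. Lyrm4, which stabilises the cysteine desulfurase, read 706, against 525 and 600.3. On the log2 scale these 4 differed from empty vector 2 by 0.44, 0.27, 0.38 and 0.23, and limma gave adjusted p = 1 for each. The scaffold Iscu and the chaperone Hspa9 were chosen after their values were seen. Iscu read 4126 on RetSat shRNA, against 2034 and 3540.4, and Hspa9 read 1468, against 3519.5 and 1541.

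**Figure D4:**
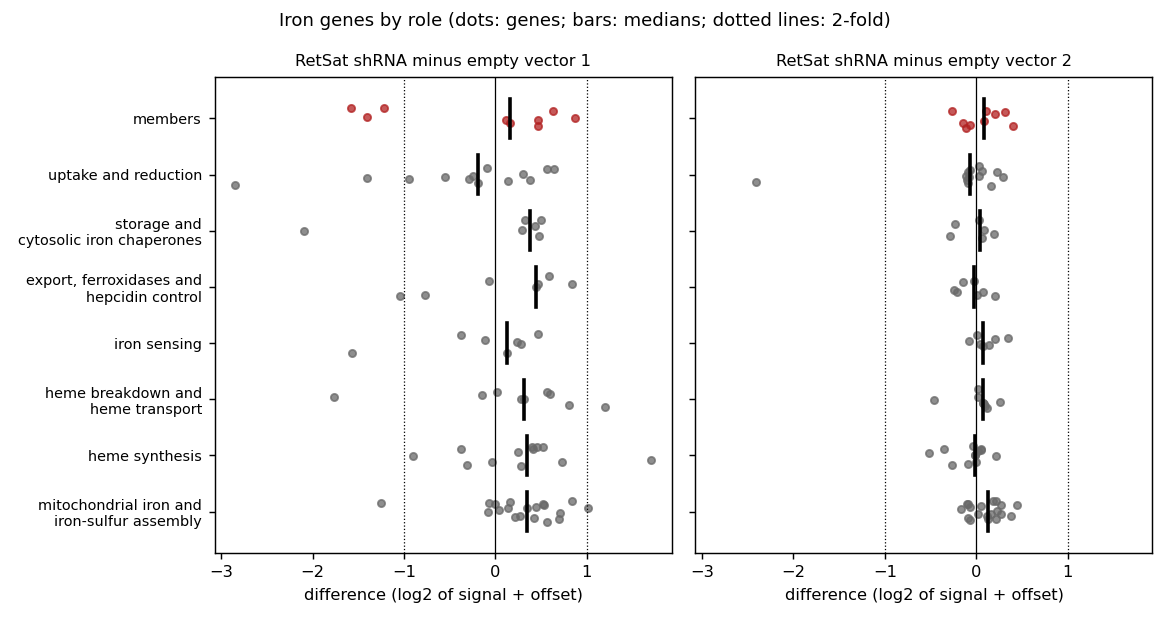
Difference of RetSat shRNA from empty vector 1 (left) and from empty vector 2 (right) for every tested iron gene, in log2 of signal + offset, by role. Dots are genes, bars are medians of a list, and the lone dot beyond 2-fold on the right is Slc22a17.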

How the data were processed

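Probe set intensities of 3 arrays were deposited by the authors on a linear scale. Neither the software nor the summary method is given in the sources used here. With 2% trimmed from each end, the deposited intensities averaged 250.002 on every array, which shows scaling to a common level. No detection calls were used, and the small number of arrays limits the precision. Per the labels, RNA was extracted with Trizol LS and labelled with biotin. Groups came from the sample titles.

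Symbols came from the platform annotation, checked by gene ID in the RefSeq table of GRCm38.p6 (0 symbols changed). The array has 34945 probe sets with 1 symbol, 932 with several, 9160 with none and 64 controls. Values were fitted in limma 3.58.1 (R 4.3.3; lmFit, eBayes, two-sided) as log2(intensity + 10.2) without further normalization. A second fit took all 19529 single-symbol probe sets above the filter, array controls with a symbol included. The fit was also run on simulated data with a spread common to all genes, set from RetSat shRNA and empty vector 2. Empty vector 1 lay farther from both, so that run does not show how the fit performs on these arrays. Figures were drawn with matplotlib 3.10.9.

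The members and lists were chosen with earlier results of these data known. Named were all members, Retsat and, from each other list, up to 4 tested genes with the largest smaller difference of one sign from both controls. Alternatives changed the offset, scaling, filter, probe set choice, variance prior and control array. The 3 arrays cannot rank genes by likeness of pattern, so none were ranked.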

Additional observations from a re-analysis of the deposited data

How the results depend on the processing

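In no alternative that allows a test did a member pass limma. Over all genes 1 passed with arrays centred on their medians and 7 with a robust variance prior, against 0 as reported. The count of genes at least 2-fold from both controls moved with the setting. As reported 10 were higher and 54 lower, against 22 and 88 with an offset of 1, 1 and 6 with an offset of 50, 385 and 415 with no filter, 0 and 1 with the 75th percentile filter, and 29 and 182 with each probe set on its own. The higher count was 20 with arrays centred and 24 after quantile normalization, and the lower count was 30 in the mean over probe sets. The cause of these changes was not tested. With 1 control left out the higher count was 78 to 374 and the lower one 110 to 1104, and that of members 0 to 3. The 3 are Tfrc, Ncoa4 and Ireb2, without empty vector 2.

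Of 80 member differences recomputed with a test 6 changed sign. Slc11a2 (-0.02) became 0.0746 with arrays centred, 0.0689 after quantile normalization and 0.20 in the mean over probe sets, Fth1 became -0.0418 after quantile normalization, and Steap3 and Slc39a14 became -0.12 and -0.11 in the mean over probe sets. Leaving out empty vector 1 turned the sign of Tfrc to 0.20 and of Aco1 to -0.27, and leaving out empty vector 2 turned Slc11a2 to 0.12. The median of the other iron genes ran from 0.03 without empty vector 1 to 0.28 without empty vector 2. The count of members that differ between the controls was not planned and was chosen after seeing the data. In it, Tfrc, Ncoa4 and Ireb2 were the members at least 2-fold higher on empty vector 1 than on empty vector 2 under each of 8 alternatives. No paired analysis was possible because the groups share only 1 replicate number. Probe sets near the floor, whose background level is not known here, limit the dim members.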
